A study of Homo sapiens with 6 samples.

Results

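Catecholamine synthesis, storage and uptake was followed through 9 genes of 60651 in the deposited tables: *TH*, *DDC*, *DBH*, *PNMT*, *GCH1*, *SLC18A1*, *SLC18A2*, *SLC6A2* and *MAOA*. They were chosen by symbol, along the pathway, by a rule that names the contrast of libraries labelled Tet with libraries labelled EtOH, and earlier results of that contrast were known when the list was made. The values of the contrast are therefore given as a description, and each adjusted p-value only places a gene in the fit across all genes. Not every gene of the pathway was detected. *TH* and *PNMT* were at or near 0 in all 6 libraries, while *DDC* and *SLC6A2* were 11.7-fold and 3.64-fold higher in libraries labelled Tet.

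Total RNA, depleted of ribosomal RNA, had been sequenced in 6 libraries of a human neuroblastoma cell line, 3 titled EtOH (read here as ethanol, the usual vehicle) and 3 titled Tet (tetracycline). Values listed with EtOH or with Tet run from replicate 1 to replicate 3. The labels gave 5 days for tetracycline and no time for ethanol. Both groups shared the same cell background, which the labels described inconsistently. The titles named IMR-5/75, a line with an amplified *MYCN* gene, a tag called the groups Control and Induction under the heading knockdown, and the protocol text spoke of SK-N-SH cells, grown as single clones, in which tetracycline turns on *MYCN*. In the methods of the study, induction was done in SK-N-AS cells, and IMR-5/75 carried an inducible shRNA for *MYCN* knockdown, so the direction in which tetracycline was meant to move *MYCN* in these libraries was not settled by the labels. *MYCN* itself was at 158, 256 and 156 CPM (counts scaled to library size, with the TMM correction for composition) with EtOH and at 196.6, 200.1 and 145.4 CPM with Tet. The groups overlapped in *MYCN* RNA, with a log2 fold change near 0 (-0.07, SE 0.23, edgeR adjusted p = 0.956). For its shRNA model, the study reports that the knockdown was verified by western blot, which measures MYCN protein. RNA counts do not measure protein, so whether tetracycline changed MYCN protein in these cells was not tested here. The labels did not say whether the libraries came from separate cultures. The study states that its cell culture experiments were repeated independently unless noted otherwise, without naming these libraries, and p-values measure the spread between them, whatever its source.

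Catecholamines are made from tyrosine. Tyrosine hydroxylase (*TH*) forms DOPA with the cofactor tetrahydrobiopterin, whose synthesis starts with GTP cyclohydrolase 1 (*GCH1*), and aromatic L-amino acid decarboxylase (*DDC*) turns DOPA into dopamine. Vesicular monoamine transporters (*SLC18A1* for VMAT1, *SLC18A2* for VMAT2) load dopamine into vesicles, where dopamine beta-hydroxylase (*DBH*) makes noradrenaline, and phenylethanolamine N-methyltransferase (*PNMT*) makes adrenaline from it. The noradrenaline transporter (*SLC6A2*) takes the released amine back up and monoamine oxidase A (*MAOA*) breaks it down. Neuroblastoma arises from sympathetic precursors, and its catecholamine products are used in diagnosis.

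Of the 9 genes, 4 had an entry read from the RefSeq promoter table (GRCh38.p14), and *TH*, *PNMT*, *GCH1* and *SLC6A2* had none. *SLC18A1* was left out of this search, so whether the table holds an entry for it is not stated here. The 250 bases before each start are shown for *DDC* and *DBH*, the 2 enzyme genes with more counts in libraries labelled Tet. They are also shown for *SLC18A2*, a storage gene whose counts could not be separated from those of a neighbour. *DDC* has 2 starts on the minus strand of chromosome 7, the first at 50565405 and the second, inside the gene, at 50561071. Counts per gene do not tell which start was used. Capitals mark the 6-letter core of the cAMP response element, TGACGT, on either strand. The other motifs searched, also on both strands, were the E-box CACGTG, which MYC proteins bind, and the TATA box TATAAA.

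*DDC*, first start, chr7:50565406-50565655, minus strand: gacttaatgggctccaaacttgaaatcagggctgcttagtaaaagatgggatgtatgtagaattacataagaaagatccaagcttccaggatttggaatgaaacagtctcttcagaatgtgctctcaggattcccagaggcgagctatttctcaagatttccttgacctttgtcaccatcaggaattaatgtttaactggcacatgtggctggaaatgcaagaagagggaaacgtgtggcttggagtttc
*DDC*, second start, chr7:50561072-50561321, minus strand: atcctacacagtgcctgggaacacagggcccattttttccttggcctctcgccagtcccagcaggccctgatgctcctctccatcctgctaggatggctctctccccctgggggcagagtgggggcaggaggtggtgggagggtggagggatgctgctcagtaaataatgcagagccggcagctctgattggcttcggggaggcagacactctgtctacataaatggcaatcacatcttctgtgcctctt
*DBH*, chr9:133636113-133636362, plus strand: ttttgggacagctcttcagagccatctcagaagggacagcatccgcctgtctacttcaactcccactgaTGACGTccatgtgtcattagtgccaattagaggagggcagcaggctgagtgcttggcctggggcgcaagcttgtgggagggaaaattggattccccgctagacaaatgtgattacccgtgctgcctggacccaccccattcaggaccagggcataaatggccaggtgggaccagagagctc
*SLC18A2*, chr10:117240864-117241113, plus strand: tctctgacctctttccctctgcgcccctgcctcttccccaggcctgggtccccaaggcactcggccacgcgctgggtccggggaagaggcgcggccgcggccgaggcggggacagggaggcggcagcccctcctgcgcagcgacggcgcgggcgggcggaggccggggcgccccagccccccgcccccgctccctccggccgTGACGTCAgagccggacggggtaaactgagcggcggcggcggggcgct

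The *DBH* window held the core once, from 181 to 176 bases before the start. The *SLC18A2* window held it on both strands, overlapping, from 48 to 41 bases before the start. Neither *DDC* window held it, and none of these 4 windows held CACGTG or TATAAA. Among all 35116 promoter windows of this length, 7.1% held TGACGT, 6.34% CACGTG and 10.7% TATAAA. GC content was 42.4% and 58% in the *DDC* windows, 55.6% for *DBH* and 78.8% for *SLC18A2*.

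Libraries held between 27933378 and 40498065 counts, so that 3 counts, the least taken as detection, were worth between 0.0755 and 0.108 CPM. In a principal component analysis, EtOH replicate 2 and Tet replicate 2 stood apart from the other 4 libraries along the first component (44.7% of variance), which did not separate the labels, whereas the second (25.7%) did. Across all 22443 genes tested, 53 (0.236%) had an edgeR adjusted p under 0.05, and 33 (0.147%) were higher in libraries labelled Tet, while 2417 (10.8%) had an unadjusted p under 0.05. The groups did not overlap, with Tet above EtOH, for 9.21% of genes tested and, with Tet below EtOH, for 8.29%.

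The cells carried transcripts of noradrenergic identity. Of 7 noradrenergic markers fixed for the comparison, all 7 were tested and none was at 0. *GATA3*, a transcription factor of sympathetic neuroblasts, was at a mean of 202.7 TPM (counts per exon length, scaled to the library) in libraries labelled EtOH and 247.6 TPM in those labelled Tet. The summed level of the 7 markers was between 536.3 and 583.6 TPM in libraries labelled EtOH and between 622.2 and 698.9 TPM in those labelled Tet. Markers of cholinergic neurons (0.121 to 0.576 TPM in sum), Schwann and glial cells (1.18 to 3.76), adrenal cortex (0.121 to 0.385) and blood and endothelium (0.206 to 0.703) were low in every library. Mesenchymal and fibroblast markers were not, with a summed level from 183.9 to 335.7 TPM in libraries labelled EtOH and from 185 to 304.9 TPM in those labelled Tet. *COL1A2*, *S100B*, *CYP11A1*, *NR5A1* and *VWF* had 0 counts throughout.

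**Figure D1:**
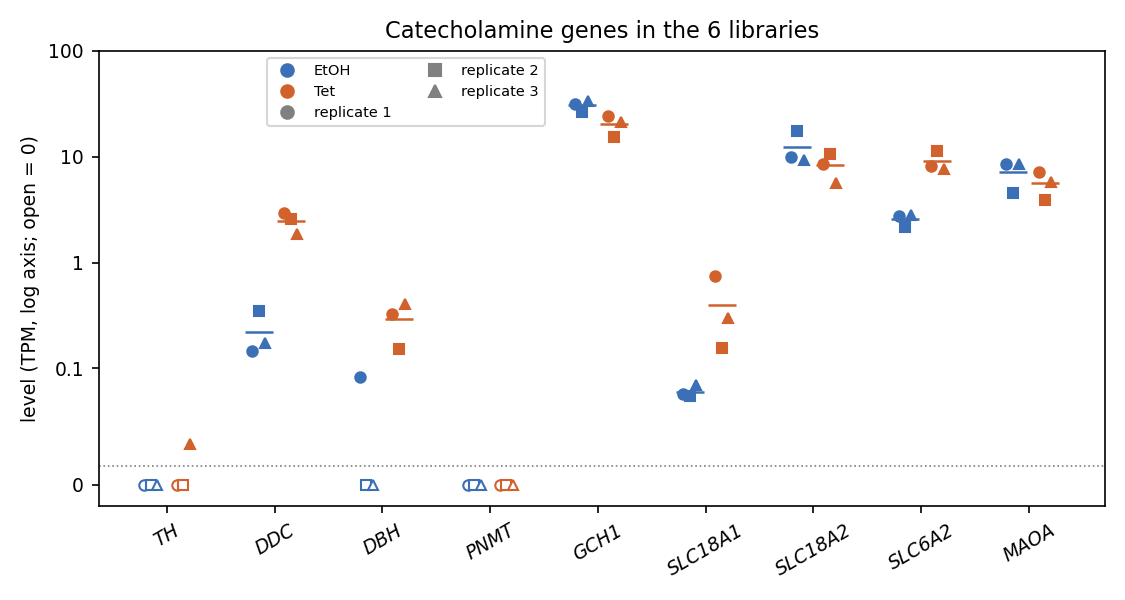
Levels of the 9 genes in each library, in TPM on a log axis, with EtOH in blue and Tet in orange, replicate number by symbol, group means as lines (drawn where no library is at 0) and open symbols for 0. *GCH1* lies highest in every library, *TH* and *PNMT* lie at the bottom, and *DDC*, *DBH*, *SLC18A1* and *SLC6A2* have all 3 Tet points above all 3 EtOH points.

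The first enzyme of the pathway was not detected. *TH* (ENSG00000180176.15, chromosome 11, 2163929 to 2171815, minus strand) had 0 counts with EtOH and in Tet replicates 1 and 2, and 1 count in Tet replicate 3. Its 3181 exon bases share no base with another gene, so no pairs were divided away from it. A level under the 3-count floor of each library, at most 0.108 CPM, could not be seen at this depth, and no fold change is given.

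*DDC* (ENSG00000132437.18, chromosome 7, 50458436 to 50565405, minus strand), the enzyme that makes dopamine and also serotonin, had the largest fold change of the 5 genes tested. It had 6, 10 and 6 counts with EtOH and 91, 104 and 94 counts with Tet, or 0.167, 0.361 and 0.198 CPM against 3.23, 2.93 and 2.37 CPM. Every library labelled Tet lay above every library labelled EtOH, and the lowest of them was at 2.37 CPM, against 0.361 CPM for the highest EtOH library. The means were 0.242 ± 0.104 and 2.84 ± 0.437 CPM (SD, n = 3 each), a log2 difference of 3.55 (SE 0.41, edgeR adjusted p = 0.0280). From the summed counts, 22 against 289, the scaled ratio was 11.9, with an exact 95% interval of 7.72 to 19.3 that covers counting error only. The libraries labelled Tet carried *DDC* past the filter on low counts, and with a minimum of 10 counts in every library it was not tested. Its place among the genes tested is therefore a description only: 0.0223% of them had a higher log2 fold change, and of the 53 genes past the threshold none did. In RNA from whole cultures, fewer cells expressing a gene and less of its RNA per cell cannot be told apart. Even so, the level stayed low per length, at 2.47 ± 0.549 TPM in libraries labelled Tet against 0.222 ± 0.108 TPM in those labelled EtOH.

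An antisense gene, *DDC-AS1*, shares 3.70% of the exon bases of *DDC*. It had 0 counts in 5 libraries and 1 in Tet replicate 3. *FIGNL1*, which runs on the same strand over part of the locus and shares no exon base with *DDC*, was counted between 1938 and 3335 times per library. With 1 library left out, the log2 fold change of *DDC* stayed between 3.31 and 3.94, whereas the adjusted p was 0.133, 0.206, 0.208, 0.114 and 0.106 without EtOH replicate 1, EtOH replicate 3, Tet replicate 1, Tet replicate 2 and Tet replicate 3, and 0.00518 without EtOH replicate 2.

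The enzyme of noradrenaline synthesis was near the detection limit. *DBH* (ENSG00000123454.12, chromosome 9, 133636363 to 133659329, plus strand) had 3, 0 and 0 counts with EtOH and 9, 5.5 and 18 counts with Tet. All 3 libraries labelled Tet were higher, at 0.319, 0.155 and 0.453 CPM, than the single EtOH library with a count, at 0.0837 CPM. *DBH* fell under the filter on low counts and was not tested. The scaled ratio of summed counts, 3 against 32, was 9.68 with an exact 95% counting interval of 3.03 to 49.4. The antisense *DBH-AS1*, with 4.30% of the exon bases of *DBH*, had 3.5 and 3 counts in Tet replicates 2 and 3 and 0 in the other 4 libraries, and without strand such reads cannot be told from those of *DBH*. Whether the TGACGT core in the *DBH* window bears on these counts was not tested.

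*PNMT* (ENSG00000141744.4, chromosome 17, 39667981 to 39670475, plus strand), which would complete adrenaline synthesis, had 0 counts in all 6 libraries. It was also under the limit of detection, at most 0.108 CPM in any library.

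The cofactor gene was the most abundant of the 9. *GCH1* (ENSG00000131979.20, chromosome 14, 54842008 to 54902826, minus strand) had 34.4, 26.3 and 35.9 CPM with EtOH and 25.1, 16.6 and 25.5 CPM with Tet. The highest Tet library lay just under the lowest EtOH library, and the replicates numbered 2 were the lowest of each label. The means were 32.2 ± 5.18 and 22.4 ± 5.02 CPM (SD, n = 3 each), and their log2 difference, -0.53 (SE 0.22), stayed short of a call (edgeR adjusted p = 0.437, unadjusted p = 0.0410). Per length it stood at 30.6 ± 3.56 and 20.3 ± 4.44 TPM, between rank 3666 and rank 6964 of all genes by library. The ratio of *DDC* to *GCH1* in TPM was 0.00461, 0.0130 and 0.00524 with EtOH and 0.122, 0.168 and 0.0881 with Tet.

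Of the vesicular transporters, VMAT1 was barely expressed. *SLC18A1* (ENSG00000036565.15, chromosome 8, 20144855 to 20183206, minus strand) had 3, 2 and 3 counts with EtOH and 29, 8 and 19 counts with Tet. The groups did not overlap, but Tet replicate 1, at 1.03 CPM, lay far above Tet replicate 2, at 0.226 CPM. It was under the filter and not tested, and the scaled ratio of summed counts, 8 against 56, was 6.35 with an exact 95% counting interval of 3.01 to 15.4.

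The counts of VMAT2 could not be separated from those of a neighbour. *SLC18A2* (ENSG00000165646.14, chromosome 10, 117241093 to 117279430, plus strand) shares 56.4% of its exon bases with other genes, and 2157 of its 4125 exon bases lie in exons of *PDZD8*, on the opposite strand, which encodes a protein of endoplasmic reticulum contact sites. The library kit marks strand. The counting command in the file headers sets no strand option and divides pairs over shared bases evenly, whereas the methods of the study give a strand-specific setting, and the values were read as the headers describe them. All genes that share exon bases with *SLC18A2* lie on the opposite strand, and its count was not whole in 3 of 6 libraries. *SLC18A2* had 544.5, 680.5 and 430 counts with EtOH and 351, 570.5 and 383 with Tet, whereas *PDZD8* had 5179, 5644 and 4530 and 3518.5, 5630 and 4596.5. *SLC18A2* was thus between 8.33% and 12.1% of *PDZD8* in every library. If *PDZD8* pairs were spread evenly over its 9854 exon bases, their divided share alone would come to 636.5, 693.6 and 556.7 counts with EtOH and 432.4, 691.9 and 564.9 with Tet. The measured *SLC18A2* count was below that value in all 6 libraries, so the deposited values do not show that *SLC18A2* was expressed. Evenness of coverage could not be examined in values per gene.

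**Figure D2:**
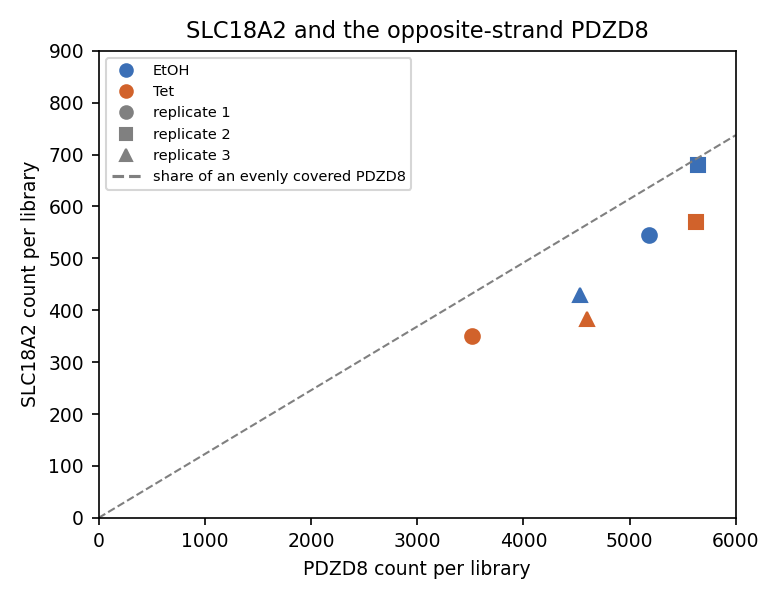
Count of *SLC18A2* against count of *PDZD8* in each library (both axes linear, from 0), with EtOH in blue, Tet in orange and replicate number by symbol. The dashed line is the count that divided pairs of an evenly covered *PDZD8* would give, and all 6 libraries lie below it.

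With that limit, *SLC18A2* was at 15.2, 24.5 and 14.2 CPM with EtOH and at 12.4, 16.1 and 9.64 CPM with Tet. The groups overlapped. Tet libraries were lower by a log2 value of -0.50 (SE 0.28, edgeR adjusted p = 0.584), which made no call, and EtOH replicate 2 had the highest value, as it had for *PDZD8* (203.6 CPM, against 115.7 to 158.8 CPM in the other libraries).

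The gene of the uptake step was the second of the 9 past the threshold. *SLC6A2* (ENSG00000103546.18, chromosome 16, 55655604 to 55706192, plus strand) was at 5.57, 4.04 and 5.65 CPM with EtOH and at 15.7, 22.7 and 17.2 CPM with Tet. All libraries labelled Tet lay above all libraries labelled EtOH, and Tet replicate 2 was the highest. The means were 5.09 ± 0.907 and 18.6 ± 3.68 CPM (SD, n = 3 each), a log2 difference of 1.87 (SE 0.24, edgeR adjusted p = 0.0332). Per length the means were 2.58 ± 0.346 and 9.05 ± 1.98 TPM.

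A gene model of unknown status on the same strand, ENSG00000278928 (chromosome 16, 55704119 to 55706422), covers 17.9% of the exon bases of *SLC6A2*, at its 3' end, and pairs over those bases were divided between them. Its own values were 3.31, 4.26 and 4.36 CPM with EtOH and 12.5, 20.0 and 10.4 CPM with Tet (log2 difference 1.85, SE 0.29, edgeR adjusted p = 0.0584). With its counts added, *SLC6A2* was at 8.87, 8.30 and 10.02 CPM against 28.2, 42.7 and 27.6 CPM, and the log2 fold change was 1.86. Leaving out 1 library kept the log2 fold change of *SLC6A2* between 1.70 and 1.97. The adjusted p was 0.133, 0.217, 0.208, 0.147 and 0.131 without EtOH replicate 1, EtOH replicate 3, Tet replicate 1, Tet replicate 2 and Tet replicate 3, and 0.00922 without EtOH replicate 2.

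*MAOA* (ENSG00000189221.10, chromosome X, 43654907 to 43746824, plus strand) was at 17.3, 8.55 and 17.4 CPM with EtOH and at 14.1, 7.98 and 13.1 CPM with Tet. The groups overlapped, and the replicates numbered 2 were the lowest of each label. No call was made (log2 difference -0.30, SE 0.33, edgeR adjusted p = 0.826). In TPM, *MAOA* was 3.07, 2.09 and 3.04 times *SLC6A2* with EtOH and 0.888, 0.347 and 0.749 times with Tet. The breakdown gene had the higher level of the pair in every library labelled EtOH and the lower in every library labelled Tet.

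**Figure D3:**
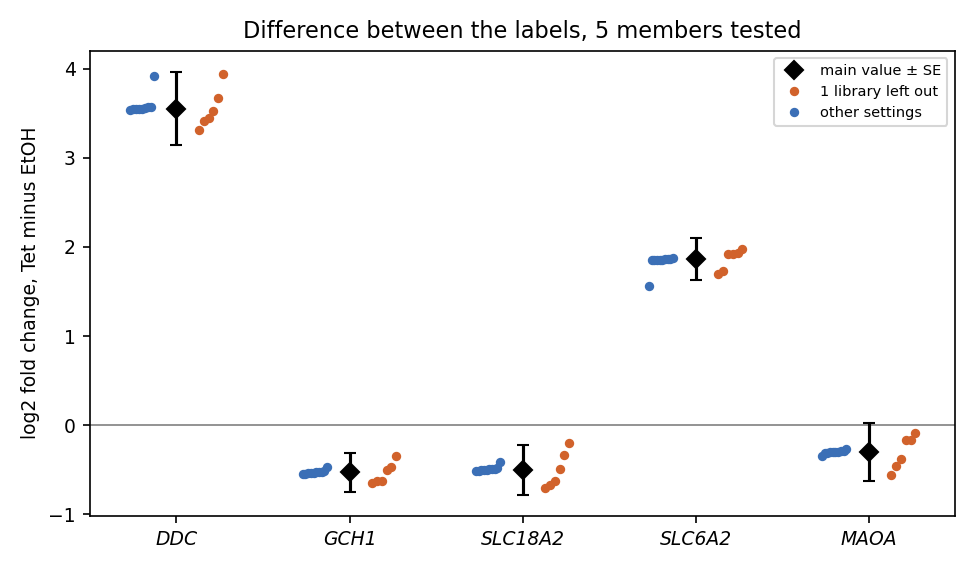
Log2 fold change, Tet minus EtOH, of the 5 genes tested: black diamonds give the value with its SE, orange points the fits with 1 library left out and blue points the other settings. *DDC* and *SLC6A2* lie above 0 and *GCH1*, *SLC18A2* and *MAOA* below 0 in all settings shown.

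By mean level per length, the order in libraries labelled EtOH was *GCH1* (30.6 ± 3.56 TPM), *SLC18A2* (12.3 ± 4.59), *MAOA* (7.19 ± 2.27), *SLC6A2* (2.58 ± 0.346), *DDC* (0.222 ± 0.108), *SLC18A1* (0.0604 ± 0.00760) and *DBH* (0.0274 ± 0.0475), with *TH* and *PNMT* at 0 (SD, n = 3). The ranges of *SLC18A2* and *MAOA* did not overlap, from 9.37 to 17.6 and from 4.57 to 8.56 TPM, and *SLC18A1* lay within the range of *DBH*. In libraries labelled Tet, *GCH1* (20.3 ± 4.44 TPM) was followed by *SLC6A2* (9.05 ± 1.98), *SLC18A2* (8.27 ± 2.47), *MAOA* (5.64 ± 1.65), *DDC* (2.47 ± 0.549), *SLC18A1* (0.399 ± 0.305) and *DBH* (0.295 ± 0.128). There, the range of *SLC18A2* overlapped those of *SLC6A2* and *MAOA*, whose own ranges did not overlap, and the ranges of *SLC18A1* and *DBH* overlapped. In both orders, the place of *SLC18A2* rests on counts that could not be separated from those of *PDZD8*, and its expression was not shown. In all, 5 of the 9 genes passed the filter on low counts, 2 of them past the threshold, both higher in libraries labelled Tet. The members were picked with this contrast known, and nothing is read from that count beside the 0.147% of all genes. Their median log2 fold change was -0.30, against -0.0061 over all genes tested.

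The genes most like *DDC* over the 6 libraries, by Pearson's r of log2 CPM among 10090 genes with a mean of at least 5 CPM, were ENSG00000286964 (r = 0.998), *PTER* (r = 0.995) and *TPTE2P5* (r = 0.995). Those most like *SLC6A2* were *CADPS* (r = 0.998), which primes dense-core vesicles for release, *TIMP2* (r = 0.996) and *SVIL-AS1* (r = 0.996). *CADPS* was at 23.2, 15.5 and 23.8 CPM with EtOH and at 69.5, 96.6 and 68.7 CPM with Tet (log2 fold change 1.91, edgeR adjusted p = 0.0285). These r values describe 6 points in 2 separate groups, and the difference between the labels is most of what they share. *TH* and *DBH* had too few counts for such a measure.

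The other genes of the pathway came from lists of 54 genes in 8 groups, of which 35 were tested. The edgeR call reached 1 of them, higher with Tet, and 0 in the other direction (0.236% of all genes tested were called), while 7 had an unadjusted p under 0.05 (10.8% of all genes tested). Groups did not overlap for 8 of the 35, all with Tet above EtOH, where the background was 9.21%. Their median log2 fold change was 0.20.

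Cofactor synthesis and recycling beyond *GCH1* showed no call among 4 genes tested of 5, and the summed level was between 35.1 and 39.0 TPM in libraries labelled EtOH and between 34.1 and 40.6 TPM in those labelled Tet. *PTS*, the next enzyme of tetrahydrobiopterin synthesis, was at 19.1 and 18.9 CPM on average (log2 difference -0.01, SE 0.20, edgeR adjusted p = 0.991), and *QDPR*, which recycles the cofactor, at 7.26 and 9.15 CPM (0.33, SE 0.37). *GCHFR*, the feedback regulator of GTP cyclohydrolase 1, had 31 counts in all and was not tested. Both genes that serve DBH in the vesicle were tested without a call. The copper pump gene *ATP7A* had non-overlapping groups, with 81.7, 84.2 and 84.5 CPM with EtOH and 100.4, 101.1 and 91.2 CPM with Tet, but a small log2 difference (0.23, SE 0.13, edgeR adjusted p = 0.613). *CYB561*, which supplies electrons, was at 0.340 and 0.811 CPM on average (1.24, SE 0.58, edgeR adjusted p = 0.504).

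Breakdown genes were present without a call in 7 tested of 8, with a median log2 fold change of 0.015. *MAOB*, the second monoamine oxidase, had 1 count in total, so *MAOA* was the only monoamine oxidase detected. The dopamine transporter gene *SLC6A3* and the organic cation transporter genes *SLC22A2* and *SLC22A3* had at most 3 counts in every library, and *SLC29A4*, a low-affinity monoamine transporter, was at 3.53 and 5.13 CPM on average (0.54, SE 0.41, edgeR adjusted p = 0.716). No call was made among the 4 genes of tyrosine and phenylalanine supply. Of the 14 adrenergic and dopamine receptor genes, 10 had at most 3 counts in every library, among them *ADRA1B*, *ADRB3*, *DRD1* and *DRD5*. The 4 tested were *ADRA1A*, *ADRA2A*, *ADRB1* and *DRD2*, with log2 fold changes from -0.82 (*ADRB1*) to 0.88 (*DRD2*) and no call.

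The regulators held the single call outside the 9 genes. *EBF3*, a transcription factor of neuronal differentiation, was at 30.7, 32.98 and 30.3 CPM with EtOH and at 68.8, 65.3 and 59.6 CPM with Tet (log2 difference 1.04, SE 0.14, edgeR adjusted p = 0.0389). All libraries labelled Tet were higher. Its adjusted p was 0.188, 0.318, 0.327, 0.189 and 0.156 without EtOH replicate 1, EtOH replicate 3, Tet replicate 1, Tet replicate 2 and Tet replicate 3, and 0.0505 with RLE size factors. Of 11 regulators tested of 12, 6 had an unadjusted p under 0.05 (10.8% of all genes tested did) and 6 had non-overlapping groups, all with Tet above EtOH (9.21% of all genes tested), and their median log2 fold change was 0.45.

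*PHOX2A*, a homeodomain factor known to act on the *DBH* promoter, was at 5.37, 4.58 and 5.14 CPM with EtOH and at 7.27, 9.14 and 23.4 CPM with Tet. The groups did not overlap, but Tet replicate 3 was far above the others, and no call was made (log2 difference 1.40, SE 0.42, edgeR adjusted p = 0.262, and 0.71 on the log2 scale without that library). The LIM factor *ISL1* was at 41.4, 65.6 and 40.9 CPM with EtOH and at 109.7, 144.3 and 79.8 CPM with Tet (1.18, SE 0.27, edgeR adjusted p = 0.142). With 1 library left out, its edgeR adjusted p ran from 0.0174 without EtOH replicate 2, where 692 of all genes passed the threshold, to 0.589 without EtOH replicate 3. *GATA2* (1.75, SE 0.45, edgeR adjusted p = 0.193), *GATA3* (0.36, SE 0.14, 0.401) and *HAND1* (0.45, SE 0.28, 0.640) also had non-overlapping groups without a call. *HAND2* (-0.14, SE 0.32) overlapped between the labels.

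**Figure D4:**
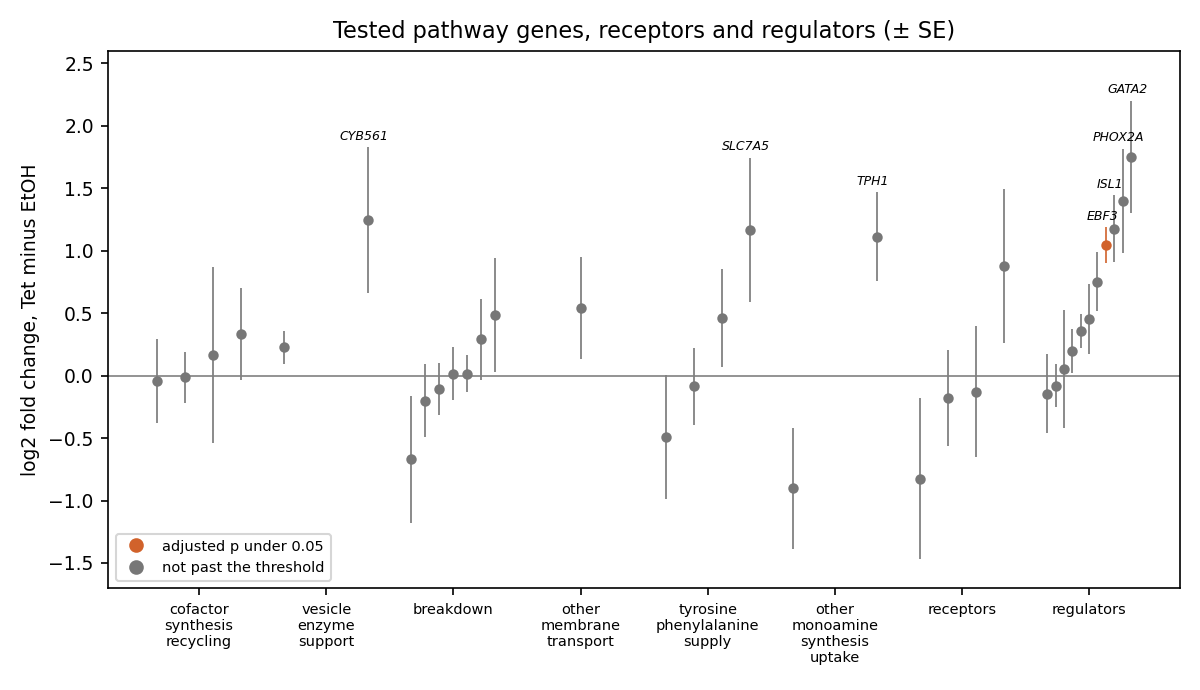
Log2 fold change, Tet minus EtOH, with SE, of the 35 tested pathway, receptor and regulator genes by list, names shown above a size of 1. *EBF3*, at 1.04, is the one gene past the threshold.

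Other markers that moved with the labels are given beside these results. Of the 7 noradrenergic markers, 5 had an unadjusted p under 0.05 (against 10.8% of all genes tested) and 5 had non-overlapping groups, all higher with Tet (against 9.21%). In edgeR with the filter none passed the adjusted threshold, whereas DESeq2 called *CHGA* (adjusted p = 0.0150), *PHOX2A* (0.0346) and *ISL1* (0.0173). Over all genes, DESeq2 called 485 of 40467 fitted, against 53 of 22443 in edgeR with the filter. Of the 7 markers, *CHGA* and *CHGB* are secretory granule genes. *CHGA* was at 1.14, 0.433 and 0.992 CPM with EtOH and at 1.63, 2.23 and 7.88 CPM with Tet. Its log2 difference was 2.18 (SE 0.65, edgeR adjusted p = 0.255), and 1.17 without Tet replicate 3. *CHGB* was also higher with Tet (log2 difference 1.05, SE 0.45, edgeR adjusted p = 0.452), but DESeq2 did not call it (adjusted p = 0.237). Among 8 mesenchymal markers, 7 tested, 0 passed the threshold and 2 had an unadjusted p under 0.05 (against 10.8% of all genes tested). These 2 went in opposite directions. *PRRX1* was at 59.5, 136.5 and 62.5 CPM with EtOH and 33.6, 55.5 and 38.5 CPM with Tet (log2 difference -1.02, SE 0.34, edgeR adjusted p = 0.317). *COL3A1* was higher in all libraries labelled Tet (1.03, edgeR adjusted p = 0.143, and 0.0242 in DESeq2). With 1 library left out, the edgeR adjusted p of *COL3A1* ran from 0.0147 to 0.625. It was lowest without EtOH replicate 2, where 692 of all genes passed the threshold instead of 53. The part of these markers in the differences of *DDC* and *SLC6A2* was not tested.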

How the data were processed

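RNA reads of all 6 libraries had been trimmed and mapped by the authors with STAR (2.7.1a per the labels), and featureCounts (1.6.4 per the file headers, 1.5.1 per the labels) had assigned uniquely mapped pairs to exons. The deposited values are estimated counts per gene, 1 table per library: pairs over several genes were divided among them and strand was not used, per the file headers, which affects overlapping and antisense genes. The methods of the study instead give strand-specific counting that admits reads with several alignments. Between 12.3% and 14.7% of values in a library were not whole. Of 53026 gene identifiers with the same version in GENCODE 44, 53025 had the same coordinates, so positions are on GRCh38. Symbols were found for 60437 identifiers (99.7%). The largest count among 92 spike-in rows was 0, and these rows were left out.

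Counts were rounded (whole counts had been planned for), filtered with filterByExpr, scaled by TMM and tested by quasi-likelihood in edgeR 4.0.16 (R 4.3.3), Tet against EtOH. Benjamini-Hochberg adjustment covered every gene tested, and a call meant an adjusted p under 0.05. The SE is the log2 fold change divided by the square root of F. TPM came from counts and exon length. Named genes were the 9 members, list genes past the threshold, with non-overlapping groups and a mean of at least 1 CPM, or with at most 3 counts everywhere, and the 3 genes most correlated with a called member or with *TH*, *DDC* or *DBH*. Log2 CPM for the correlations used a prior count of 2. Other list genes named were chosen after their values were seen. Some list genes are counted with their list but not reported here by name. Members and lists were chosen with earlier results of these data known. Alternatives were RLE and upper quartile scaling, other filters, DESeq2 1.42.0, limma-voom (limma 3.58.1), a replicate block, removal of mitochondrial genes and leaving out libraries. The edgeR step was tested on simulated data. Promoters were read from the RefSeq table and checked against hg38.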

Additional observations from a re-analysis of the deposited data

How the results depend on the processing

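Of 79 comparisons of the 5 tested catecholamine genes with an alternative, 69 kept direction and side of the threshold and 10 kept direction but lost the call, the latter being *DDC* and *SLC6A2* in 5 fits each that left out 1 library. Adjusted p-values over all alternatives ran from 9.3e-10 to 0.208 for *DDC*, from 1.4e-08 to 0.217 for *SLC6A2*, from 0.0786 to 0.856 for *GCH1*, from 0.173 to 0.835 for *SLC18A2* and from 0.232 to 0.996 for *MAOA*. Of the 9 genes, 2 passed the threshold under every alternative that kept all libraries, except that with a minimum of 10 counts in every library, where *DDC* is no longer tested, there was 1. With 1 library left out there were from 0 to 2 (edgeR; 3 or 4 had an unadjusted p under 0.05 where none passed). Pathway, receptor and regulator genes past the threshold numbered 0 under RLE size factors (7 at an unadjusted p under 0.05), 3 with no filter, 3 under DESeq2, and from 0 to 3 with 1 library left out. All genes past the threshold numbered 302 with no filter, 485 under DESeq2 and from 0 to 692 with 1 library left out, the largest without EtOH replicate 2. For these changes the cause was not tested. With both libraries numbered 2 left out, a setting added after seeing the data, there were 874 genes, 3 of them from the pathway lists, and *DDC* (3.91) and *SLC6A2* (1.56) kept the call. Adding the counts of ENSG00000278928 to *SLC6A2* was also chosen after seeing the data.

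The labels give both groups replicate numbers 1 to 3. After the group means were removed, EtOH and Tet libraries of 1 number correlated at 0.0603, 0.51 and 0.219, and the lowest value was too small to treat the numbers as pairs. In the fit with a replicate block, 675 genes passed the threshold, 4 of them from the pathway lists (*EBF3*, *ISL1*, *TLX2* and *TPH1*), as did the markers *CHGB* (adjusted p = 0.0311), *PRRX1* (0.00977) and *COL3A1* (0.0137), and *GCH1* had an adjusted p of 0.0786. The order of the 9 genes by mean level was the same in CPM as in TPM. With no filter, *SLC18A1* (log2 fold change 2.69, edgeR adjusted p = 0.136) and *DBH* (3.20, 0.260) could be tested and did not pass the threshold. Depth limits *TH*, *PNMT*, *DBH* and *SLC18A1*, and the division of pairs limits *SLC18A2*.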

Other observations

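DDC also serves serotonin synthesis, and the genes of that route were low. *TPH1*, a tryptophan hydroxylase, was at 2.09, 5.01 and 2.71 CPM with EtOH and at 6.38, 8.62 and 6.17 CPM with Tet. The groups did not overlap, but no call was made (log2 fold change 1.11, SE 0.35, edgeR adjusted p = 0.287). With 1 library left out, the edgeR adjusted p of *TPH1* ran from 0.0220 without EtOH replicate 2, where 692 of all genes passed the threshold, to 0.809 without EtOH replicate 3. *TPH2* went the other way in level, at 0.237, 0.830 and 0.231 CPM with EtOH and 0.213, 0.141 and 0.0755 CPM with Tet, with 52.5 counts in all, too few to be tested, and histidine decarboxylase (*HDC*) had at most 3 counts in every library. The serotonin transporter gene *SLC6A4* was at 3.52 and 1.88 CPM on average (-0.90, SE 0.48, edgeR adjusted p = 0.568). Counts of *TPH1* thus exceeded those of *TH*, with 1026.5 counts over the 6 libraries against 1.

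Cholinergic genes, which some sympathetic neurons use in place of noradrenaline, stayed near the limit of detection, with 25 counts of *CHAT*, 37 of *SLC18A3* and 35 of *SLC5A7* over the 6 libraries, and none was tested.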
